A study of Mus musculus with 2 samples.

Results

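In the left cerebral cortex of female B6CASTF1/J mice aged 14 days, a first-generation cross of 2 inbred strains, long-read RNA sequencing found reads on 1045 of the 3149 annotated noncoding genes that lie antisense to another gene or share a bidirectional promoter with one. The genes were taken by their type in the deposited annotation, antisense (951 of 2959 had a read, 32.1%) or bidirectional promoter long noncoding RNA (94 of 190, 49.5%). All of their transcript models that the read tables list were used, 1363 models in replicate 1 and 1166 in replicate 2. The series holds 1 untreated group of 2 libraries, labelled biological replicates 1 and 2 and made from 2 µg of RNA each. The labels number the animals of the libraries differently, one description can be read as tissue of several females, and both libraries name the same donor, which stands for the strain. Whether each library is 1 animal is thus not settled, and p-values weigh how far these libraries differ beyond counting error, which may be technical. The labels give no genotype beyond the cross and no treatment, so no condition could be compared.

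Replicate 1 held 1072344 mouse reads on 133494 models and replicate 2 held 753520 on 116334. In replicate 1, 3961 reads lay on the antisense and bidirectional genes, 0.369% of mouse reads (Wilson 95% interval 0.358 to 0.381%). In replicate 2 they were 3149 reads, 0.418% (0.404 to 0.433%), so the intervals of the libraries do not meet. Levels are given as RPM (mouse reads scaled to a total of 1000000), in which a single read was worth 0.933 in replicate 1 and 1.33 in replicate 2. A gene at 0 may still reach 2.80 and 3.98 RPM. Intervals and limits cover counting error only. Markers of neurons, astrocytes, oligodendrocytes and microglia were all read in both libraries, and the cerebellar markers Pcp2 and Cbln3 were at 0. In bulk tissue, fewer cells of a type and less RNA per cell cannot be told apart. The choroid plexus marker Ttr stood at 25.2 and 256 RPM, and the myelin gene Mbp at 3673 and 2142 RPM, and the part of such differences in the noncoding counts was not tested.

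Antisense genes are transcribed from the strand opposite another gene and overlap it in part or in whole. Bidirectional noncoding genes start close to a coding gene and run away from it, so that a promoter region serves both strands. Some of these RNAs are known regulators in cis, such as Airn at the imprinted Igf2r locus and Tsix opposite Xist on the X chromosome, while for most no function is known. Each noncoding gene was paired with the nearest protein-coding gene on the opposite strand.

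The DNA between the start of a head-to-head noncoding gene and that of its partner is shown first, because it is the region both starts share. Sequences are RefSeq promoter windows of GRCm38.p6 (mm10), written 5′ to 3′ on the strand of the coding gene, from the base after the noncoding start to the base before the coding start as GENCODE M21 places them. Capitals mark 3 motifs on either strand, which run together where they touch. The letters GGGCGG stood for a GC box. The CCAAT box was searched by the letters of its name. An ETS core was searched as CCGGAAG. The TATA box, as TATAAA, and the NRF1 core were searched in the same way. The first 3 noncoding genes had the most reads among those whose stretch was read, and the fourth holds both a CCAAT box and an ETS core.
2810013P06Rik and Ankrd11, chr8:123042278-123042465, minus strand: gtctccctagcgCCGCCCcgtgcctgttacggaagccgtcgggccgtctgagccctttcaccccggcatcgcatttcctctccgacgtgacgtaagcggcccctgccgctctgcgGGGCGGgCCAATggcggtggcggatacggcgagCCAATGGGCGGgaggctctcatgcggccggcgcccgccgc
Cep83os and Cep83, chr10:94688577-94688653, plus strand: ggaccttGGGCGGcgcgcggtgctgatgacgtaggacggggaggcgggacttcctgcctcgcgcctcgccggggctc
2610306M01Rik and Aak1, chr6:86849441-86849516, plus strand: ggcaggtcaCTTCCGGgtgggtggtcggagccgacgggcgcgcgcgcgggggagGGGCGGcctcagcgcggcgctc
2810029C07Rik and Mark3, chr12:111574403-111574522, plus strand: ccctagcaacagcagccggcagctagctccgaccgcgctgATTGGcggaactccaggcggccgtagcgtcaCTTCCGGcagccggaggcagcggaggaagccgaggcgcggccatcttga

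The stretch of 188 bases between 2810013P06Rik and Ankrd11, a chromatin regulator, held 3 GC boxes and 2 CCAAT boxes. That beside Cep83, a protein of the centriole's appendages, held 1 GC box. The stretch beside Aak1, a kinase of clathrin-coated vesicle formation, held 1 GC box and 1 ETS core. A stretch of 20 bases or more could be read for 48 counted pairs that lay apart head to head with starts within 300 bases (none on chromosome 18 was taken). Their median length was 112 bases and their median GC content 69.5%. Of the 48, 29 held a GC box, 17 a CCAAT box, 7 an ETS core, 0 a TATAAA, 0 an NRF1 core and 11 none of these.

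Windows of equal length were compared next. The stretches above vary in length, so the shares of windows are no background for their counts. Among all 32851 RefSeq promoter windows, which reach from 250 bases before to 50 after a start, 35.7% held a GC box, 37.4% a CCAAT box, 13.6% a TATAAA and 8.86% an ETS core. The 123 windows of coding partners whose starts lay within 300 bases of a counted noncoding start, head to head or overlapping at the 5′ ends, held a GC box in 61.8%, a CCAAT box in 34.1%, a TATAAA in 5.69% and an ETS core in 24.4%. The 1105 windows of the partners of all counted noncoding genes, whatever the distance, held a GC box in 58.0%, a CCAAT box in 34.5%, a TATAAA in 7.60% and an ETS core in 13.6%. RefSeq windows were matched by symbol to 445 of the 1045 counted noncoding genes. Their 568 windows held a GC box in 37.9%, a CCAAT box in 35.4%, a TATAAA in 7.92% and an ETS core in 7.75%. The 844 windows of noncoding genes without a read held a GC box in 21.1%, a CCAAT box in 31.4%, a TATAAA in 11.4% and an ETS core in 5.33%. The groups of windows also differed in base content. Median GC content was 52.7% over all windows, 64% for partners with starts within 300 bases and 61.3% for all partners. It was 55.7% for counted noncoding genes and 50.5% for those without a read. A match is a run of letters, and its part in transcription was not tested.

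Most of the noncoding genes were read a few times at most. Of the 1045, 392 had a single read over both libraries, 519 had 2 to 9, 134 had 10 or more and 17 had 50 or more, while 2104 annotated members had none. Reads were found in both libraries for 498 genes, in replicate 1 alone for 305 and in replicate 2 alone for 242. The median counted gene had 2 reads, as did the median counted lincRNA (intergenic noncoding) gene, against 32 for coding genes. A read was found for 876 of 5854 annotated lincRNA genes and for 67.8% of 22028 coding genes. The 3 antisense genes with the most reads held 17.1% of the 7110 reads of both libraries and the 12 with the most held 30.6%.

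The kind of model differed between the 2 gene types. The authors class each model as an annotated transcript, an incomplete match to its splicing, a new combination of annotated splice sites, a model with a splice site outside the annotation, or Genomic, a class whose definition is not given in the sources used here. For bidirectional genes 73.9% and 71.3% of reads in replicates 1 and 2 were on annotated transcripts, and 12.4% and 14.5% on Genomic models. For antisense genes 21.3% and 17.4% were on annotated transcripts, and 61.8% and 68.7% on Genomic models. The Wilson intervals of the antisense and bidirectional shares lay far apart in both libraries, but they treat reads as independent, while reads cluster by gene. Of the 369 and 246 annotated reads of bidirectional genes, Ndufb1-ps gave 88 and 73 and Gm47163 gave 93 and 52. Coding genes had 72.8% and 71.4% annotated and lincRNA genes 42.7% and 37.7%. Over both noncoding types together annotated transcripts took 27.9% and 23.3%, and without the 3 genes with the most reads 34.3% and 27.5%. Counted by model in place of reads, annotated transcripts were 46.4% and 44.5% of bidirectional, 21.4% and 19.2% of antisense and 18.3% and 20.2% of coding models.

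**Figure D1:**
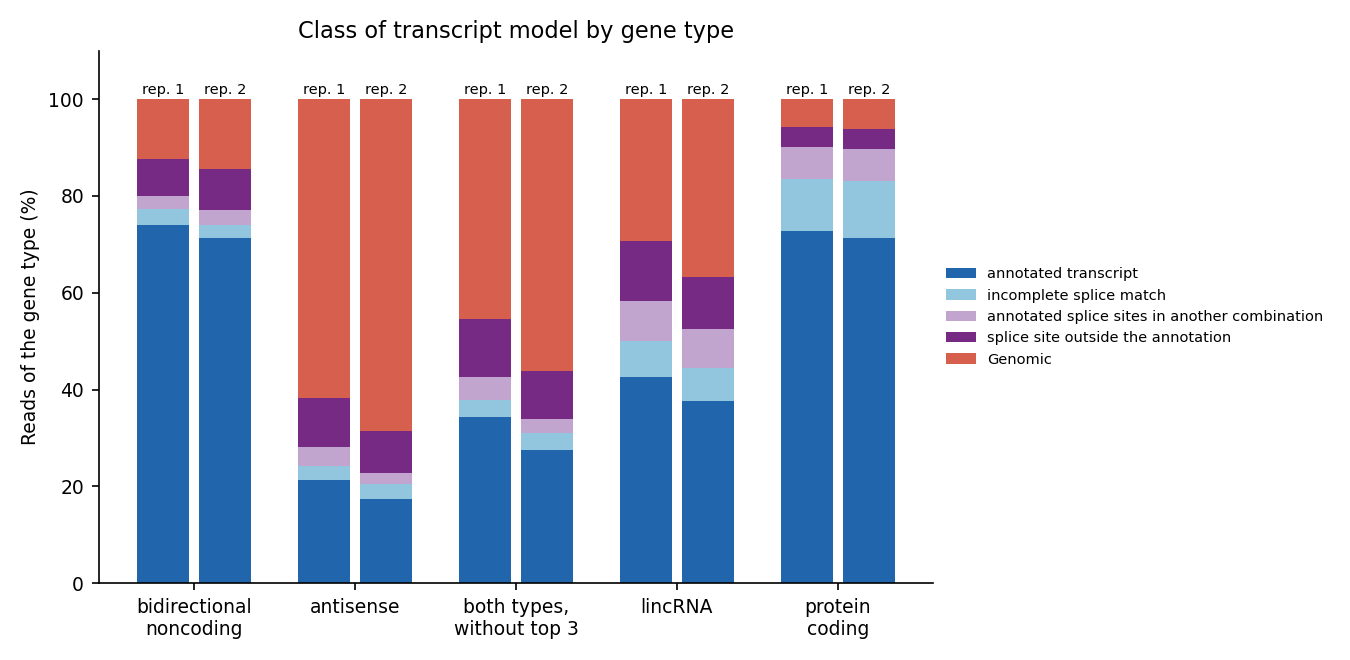
Stacked bars give the percent of a gene type's reads on each class of model, with 1 bar per library. Annotated transcripts took over 70% of the reads of bidirectional and coding genes and under 22% of those of antisense genes, where Genomic models took 61.8% and 68.7%.

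Reads on models with a single exon made up 65.6% and 69.5% of the noncoding reads, against 9.73% and 10.4% of coding reads. Read-weighted median spliced length was 1608 and 1618 bases, against 2250 and 2222 bases for coding genes, whose median model had 7 exons. Unannotated single-exon models that touched none of the gene's own exons held 25.5% and 25.7% of the noncoding reads, and 13.3% and 16.8% without the 3 genes with the most reads. Unannotated spliced models with an intron of the gene held 10.4% and 8.57%. Models touching an exon of an opposite-strand coding gene held 69.1% and 67.8% of the noncoding reads, and those lying in such exons by 50% or more of their bases held 33.8% and 31.9%. Among Genomic models the latter share was 51.2% and 43.8%, or 27.0% and 26.1% without the 3 most read genes, and among annotated transcripts 9.31% and 9.67%. A model's ends and length stand for the model, not for each read placed on it.

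Gm48091, antisense to Opcml, a cell adhesion molecule of the neuronal surface, had the most reads: 345 in replicate 1 and 226 in replicate 2, or 311 ± 15.4 RPM (SD, n = 2). The gene spans chr9:28794296-28954347 on the minus strand. All of its reads were on Genomic models, and 341 and 226 of them were on a single-exon model that lay wholly opposite the 3′ UTR of Opcml and touched no exon of Gm48091 itself. Opcml had 39 and 37 reads, so the noncoding gene took 89.8% and 85.9% of the reads of the pair. Its reads exceeded those of its partner in both libraries.

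Gm15337, antisense to Arhgap26, a GTPase-activating protein, had 240 and 135 reads (201 ± 31.6 RPM, SD, n = 2), against 16 and 17 of its partner. It spans chr18:39367038-39389425 on the minus strand. Its main models, with 232 and 130 reads, each had 1 exon and lay wholly opposite the 3′ UTR of Arhgap26. Gm20659 (chr11:101971143-101971859, plus strand) lies inside Dusp3, a dual-specificity phosphatase, and had 156 and 116 reads (150 ± 5.99 RPM, SD, n = 2), against 108 and 76 of Dusp3. All of them were on 1 single-exon model per library that lay wholly opposite the Dusp3 3′ UTR and shared at most 16.2% of its bases with the exons of Gm20659. The same placement, wholly opposite a 3′ UTR in both libraries, held for Gm16105 (47 and 41 reads) at Celf5, an RNA-binding protein gene, with 20 and 17 reads, and for Gm43126 (34 and 45 reads) at Ccnd2, encoding cyclin D2, with 41 and 37 reads.

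Other highly read genes had spliced or annotated transcripts. Ndufb1-ps, a bidirectional gene named as a pseudogene of a subunit of respiratory complex I, had 94 and 75 reads (93.6 ± 8.40 RPM, SD, n = 2). It spans chr12:101968090-101977068 on the minus strand, and its reads are uncertain where a near-identical copy exists. All its reads were spliced and 88 and 73 were on annotated transcripts. Its partner Cpsf2, a subunit of the pre-mRNA cleavage and polyadenylation factor, had 57 and 30. Gm47163 (chr10:79637856-79639520, plus strand), which starts 62 bases from Shc2, a signalling adaptor, had 93 and 52 reads (77.9 ± 12.5 RPM, SD, n = 2), all on 1 annotated single-exon transcript of 1665 bases, against 68 and 41 of Shc2. Rab10os (chr12:3235504-3250377, plus strand) had 54 and 39 reads (51.1 ± 0.990 RPM, SD, n = 2), of which 48 and 32 were spliced, against 356 and 214 of Rab10, a small GTPase of vesicle transport. 2810468N07Rik (chr17:25570358-25575043, plus strand), which starts 328 bases from the transcription factor gene Sox8, had 49 and 28 reads, of which 39 and 20 were on annotated transcripts, against 109 and 70 of Sox8.

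The remaining 3 of the 12 differed in structure. Gm26724 (chr17:27201032-27203071, plus strand, 57 and 73 reads), inside the nuclear membrane gene Lemd2 (69 and 58), was read on single-exon Genomic models with 74.0% and 74.5% of their bases opposite Lemd2 introns. Gm44151 (chr7:3391596-3400926, minus strand, 46 and 58 reads), inside Cacng8, an auxiliary subunit of AMPA receptors, was read on Genomic models of which 37 and 48 reads were spliced, while Cacng8 had 2 and 0 reads. The spliced model of each library touched no exon of Gm44151 and held none of its introns. Of that model's bases, 37.2% and 22.0% lay opposite Cacng8 introns and the rest opposite Cacng8 exons. With overlapping same-strand models counted together, the reads of Gm44151 were 75 and 71. 4933431E20Rik had 42 and 34 reads, of which 18 and 7 were on annotated transcripts. Its nearest partner by gene body, Eps8l3, had no read in either library, while the nearest coding start belonged to Gstm5, a glutathione transferase gene, with 107 and 64 reads.

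**Figure D2:**
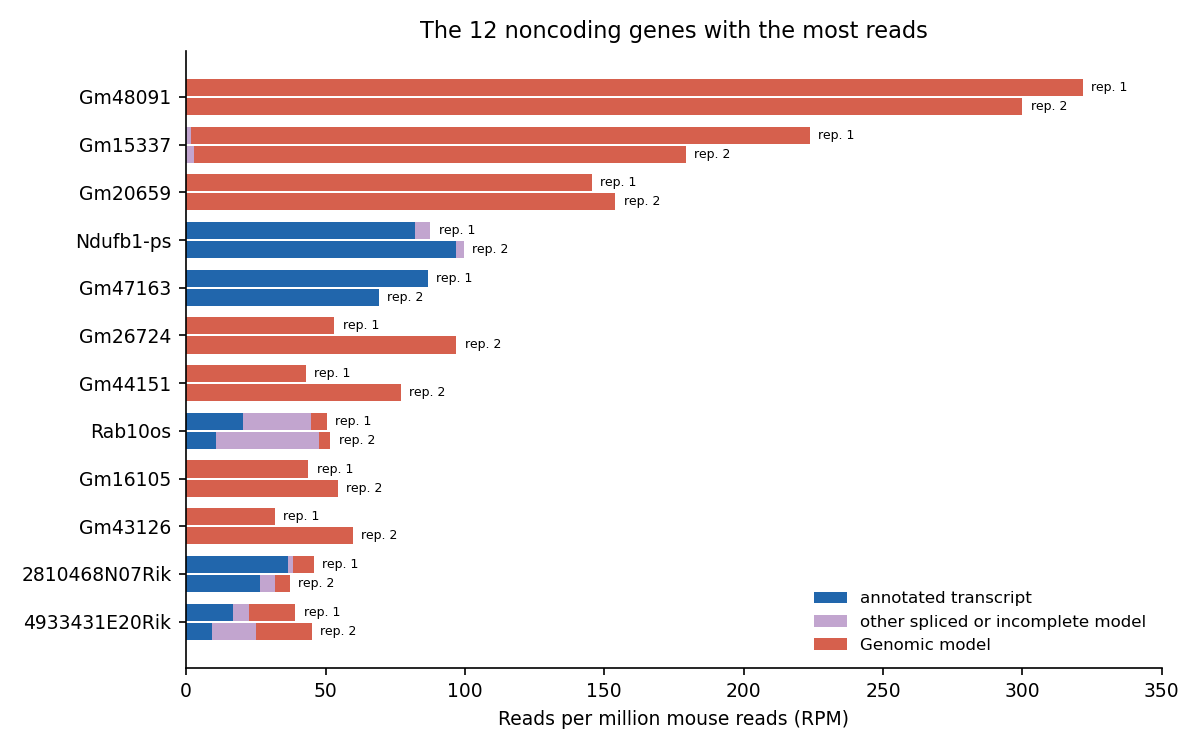
Horizontal bars give the RPM of the 12 noncoding genes with the most reads, 1 bar per library, split by class of model. Genomic models make up all or nearly all of Gm48091, Gm15337, Gm20659, Gm26724, Gm44151, Gm16105 and Gm43126, and annotated transcripts most of Ndufb1-ps, Gm47163 and 2810468N07Rik.

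The genomic bases after the ends of these models are shown next, because several of the most read antisense genes ended at the same kind of sequence. Each line gives the last 10 bases of the single-exon model and the 20 bases that follow it on its own strand, in mm10, read from the coding transcript on the other strand in GENCODE M21. Capitals mark adenines among the 20 following bases.
Gm48091 in replicate 1, chr9:28920385-28920414, minus strand: ccactcattcAAAAAAAAAAAAAAAAAAAA
Gm20659 in both libraries, chr11:101972941-101972970, plus strand: attctgggccAAAAAAAAAAAAAAAAAAAA
Gm16185 in both libraries, chr9:97090818-97090847, plus strand: ataatactgcAAAAAAAAAAAAAAAAAAAA
Gm43126 in replicate 1, chr6:127128818-127128847, plus strand: ataattgtgcAAAAAAAAAAAAAcAAAAAA
4921516A02Rik in both libraries, chr10:78440004-78440033, plus strand: ccttgtcttgAAAAAtcAAAAccAAAAccA
Gm16105 in both libraries, chr10:81461539-81461568, plus strand: aggggaaattggcttttggggttttttgct

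Adenine filled all 20 bases after the Gm48091 model of replicate 1 and 19 of 20 after that of replicate 2, which ended a base further on. For Gm20659 it was 20 of 20 in both libraries. Gm16185 lies inside Slc25a36, a mitochondrial nucleotide carrier with 26 and 16 reads, had 28 and 35 reads of its own and also ended at 20 of 20. Gm43126 ended at 19 and 17 of 20. For Gm15337 the main model of replicate 1 was followed by 20 adenines and that of replicate 2 by 2. 4921516A02Rik (24 and 38 reads), which overlaps the 3′ end of the vitamin B6 kinase gene Pdxk, ended at 14 of 20. Gm16105 had 0 adenines after its end in both libraries and Gm44151 had 5.

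Over all Genomic models whose following bases could be read, 105 of 589 in replicate 1 and 108 of 584 in replicate 2, 31.4% and 26.9% of models had 12 or more adenines of 20. Those models carried 76.3% and 53.1% of the reads on models read in this way, or 36.4% and 33.5% without Gm48091, Gm15337 and Gm20659. Annotated models had 12 or more in 1 of 29 and 1 of 27, 3.45% and 3.70%. Among all 859069 windows of 20 bases along the 216 coding transcripts used, 1.70% held 12 or more adenines on the strand opposite the transcript, that of the noncoding models. The models read are those whose ends lie opposite a coding exon, so they are not a sample of all models. The part of these adenine runs in the number of reads was not tested.

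**Figure D3:**
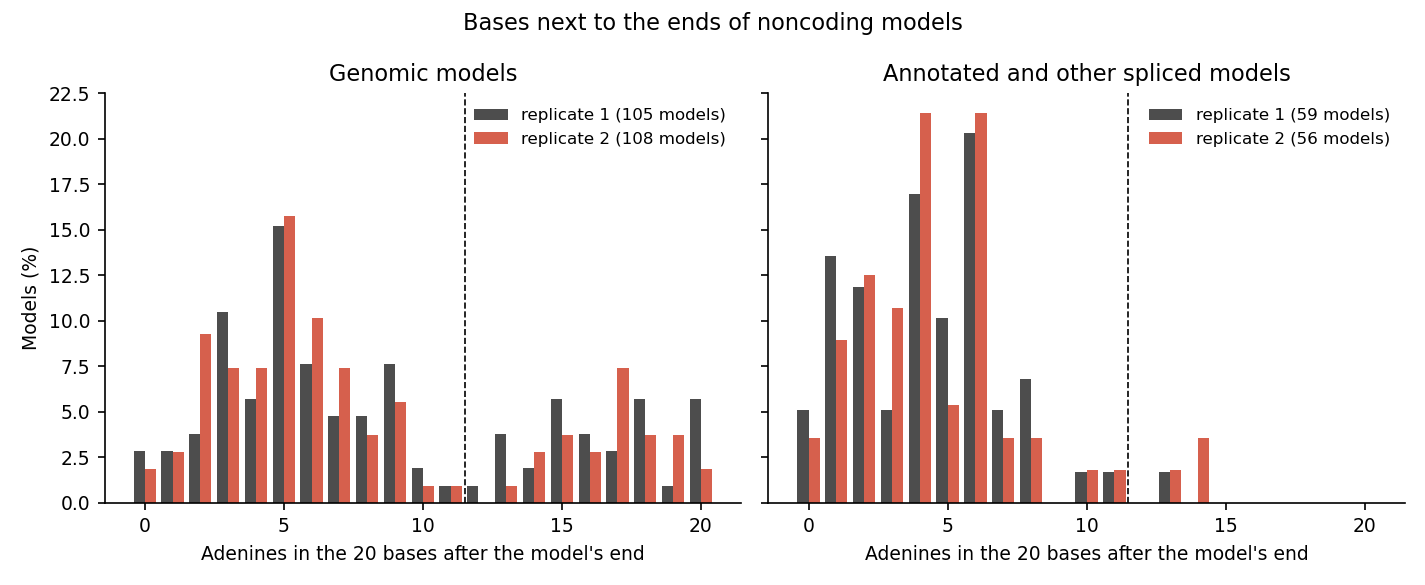
Bars give the percent of noncoding models, by the number of adenines in the 20 genomic bases after the model's end, for Genomic models (left) and all other models (right) in each library, with a dashed line at 12. Genomic models form a second group above the line, 31.4% and 26.9% of models, which the other models lack apart from 1 in replicate 1 and 3 in replicate 2.

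Annotated noncoding transcripts that were read often carried a canonical polyadenylation hexamer near the end. The last 30 bases of 5 that held AATAAA there, from GENCODE M21 transcripts on mm10, show it in capitals. Other much read transcripts held neither AATAAA nor ATTAAA in their last 30 bases. Among these were Ndufb1-ps-203 (75 and 57 reads), Gm13375-201 (26 and 24) and Cep83os-201 (20 and 7). On the genome, the AATAAA of Ndufb1-ps-201 lies just upstream of the last 30 bases of Ndufb1-ps-203. It is thus within 50 bases of the end of Ndufb1-ps-203, the window used for the shares of transcripts with a hexamer.
Gm47163-201, chr10:79639491-79639520, plus strand: tgctaAATAAAccaatgtgcacaatgctaa
2810468N07Rik-201, chr17:25575014-25575043, plus strand: AATAAAtggctttcttgtgtctgtcctgca
2810013P06Rik-201, chr8:123044573-123044602, plus strand: atatacattAATAAAtcttttttaaaaata
Snhg9-201, chr17:24719531-24719560, minus strand: tcttttctcaAATAAAgtgatttaacctaa
Ndufb1-ps-201, chr12:101968110-101968139, minus strand: aagttattggagaAATAAAaacatttacta

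AATAAA or ATTAAA stood in the last 50 bases of 56.1% of the 408 annotated noncoding transcripts with a read, 55.1% of antisense and 60.5% of bidirectional ones. The share was 66.5% for lincRNA and 66.3% for coding transcripts. Weighted by reads it was 67.0% for the noncoding transcripts and 80.9% for coding ones. Ndufb1-ps had a second annotated end 20 bases downstream, Ndufb1-ps-203, which held more reads (75 and 57) than Ndufb1-ps-201 (13 and 16). Snhg9, the host of a small nucleolar RNA inside the ribosomal protein gene Rps2, had 12 and 18 reads, all on its annotated transcript of 183 bases.

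Where a noncoding gene lay against its partner went along with how it was read. Pairs were sorted by gene body into head to head and apart, overlapping at the 5′ ends, inside the coding gene, spanning it, overlapping at the 3′ ends, and tail to tail and apart. A read was found for 91 of 259 genes lying head to head, 305 of 672 overlapping at the 5′ ends, 391 of 1618 inside, 45 of 98 spanning, 204 of 423 overlapping at the 3′ ends and 9 of 79 lying tail to tail. Annotated transcripts held 63.6% and 60.9% of the reads of head-to-head genes and 52.3% and 46.5% at 5′ overlaps, against 14.4% and 10.9% at 3′ overlaps, or 26.6% and 17.6% there without Gm48091 and Gm15337. The 5′ overlaps also rest in part on a few genes. Of their 1023 and 782 reads, 88 and 73 were annotated reads of Ndufb1-ps and 93 and 52 of Gm47163. Their share without these genes was not computed. Models lying by 50% or more of their bases in opposite-strand coding exons held 1.79% and 2.54% of head-to-head reads and 65.3% and 60.8% of reads at 3′ overlaps. Without Gm48091 and Gm15337 the last shares were 36.7% in each library.

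**Figure D4:**
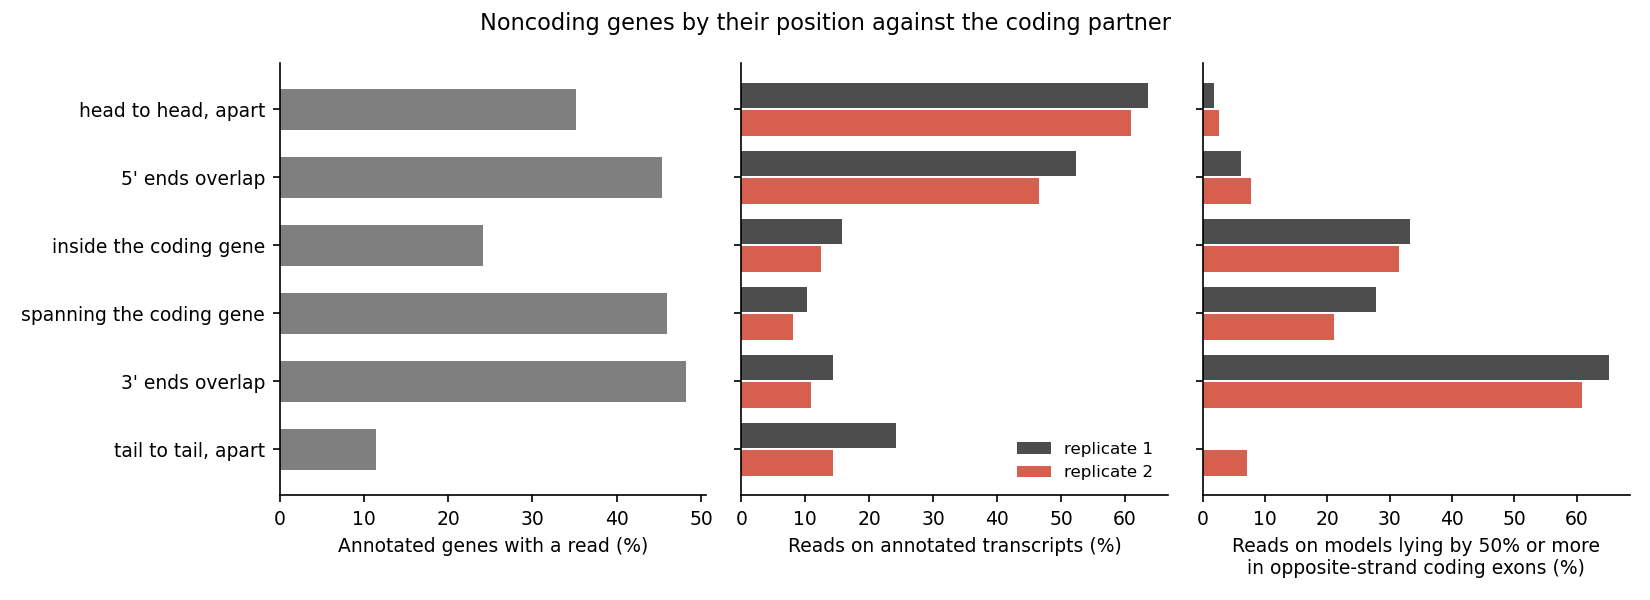
For each arrangement of the pair, bars give the percent of annotated noncoding genes with a read in either library (left), the percent of reads on annotated transcripts (middle) and the percent on models lying mainly in opposite-strand coding exons (right), the last 2 by library. Annotated transcripts held 63.6% and 60.9% of head-to-head reads. Coding-exon models held 65.3% and 60.8% at 3′ overlaps (36.7% in each library without Gm48091 and Gm15337) and 0% and 7.14% tail to tail.

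The head-to-head genes with the most reads were Gm13375 (31 and 27 reads, beside Arhgap21 with 32 and 20), 2810013P06Rik (23 and 19, Ankrd11 70 and 58), Cep83os (25 and 13, Cep83 59 and 38) and 2610306M01Rik (13 and 9, Aak1 85 and 44). Annotated transcripts took 26 and 24 reads of Gm13375 and all reads of 2810013P06Rik and 2610306M01Rik. With annotated transcripts alone on both strands, the mean share of the pair's reads went from 24.7% to 94.2% for 2810013P06Rik, which then led its pair, and from 53.3% to 91.0% for Gm13375. Their starts lay 173, 189, 78 and 77 bases from those of their partners. All 11 head-to-head genes with 10 or more reads started within 300 bases of the partner, against 65 of 91 with any read and 102 of 168 without one. The median distance was 162 bases for those read and 201 for those without a read.

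Among genes spanning their partner, Gm15283 (19 and 26 reads) covered Hif1a, a transcription factor of the oxygen response, with 49 and 30 reads, and all but 1 of its reads were on single-exon models in Hif1a introns. Gm20687 (19 and 21) covered the transcription factor gene Zfhx2 (2 and 3), Brip1os (16 and 14) covered Ints2 (10 and 5), and 4930549G23Rik (13 and 14) covered the nucleoporin gene Seh1l (111 and 64). Among the tail-to-tail genes, Fbxl12os had 5 and 1, Gm39662 2 and 1, and 9630028B13Rik 1 and 1.

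Partners of read noncoding genes were themselves more often read. They had a median of 37 reads over both libraries and 93.8% of them had a read, against 12 reads and 80.3% for partners of noncoding genes without a read and 9 reads and 67.8% for all coding genes. Within the read pairs, Spearman's rho between the reads of the 1045 pairs was 0.103 in replicate 1 and 0.106 in replicate 2. Pairs share their library and depth, and some share a partner (1005 distinct partners), and most noncoding counts are sparse, so rho is a description and no relation is read from it.

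The comparison of reads within a pair was made for the 662 pairs with 10 or more reads in each library. Reads were compared without a correction for length, and duplicates from amplification could not be removed. The partner had more reads in both libraries in 619 pairs, the noncoding gene in 24 (3.63%), and 19 were equal or differed in direction. Under this filter a noncoding gene with under 10 reads over both libraries could not lead in both. Of the 1045 noncoding genes 134 had 10 or more, so for most of the 662 pairs the filter fixed in advance that the noncoding gene could not lead. The shares below rest on the same filter. The median share of the noncoding gene was 2.86% and 3.36% of the pair's reads. It was under 10% in both libraries in 472 pairs. Per kilobase of model length the mean of the library medians was 4.98% in place of 3.11%, and the noncoding gene led in 33 pairs.

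**Figure D5:**
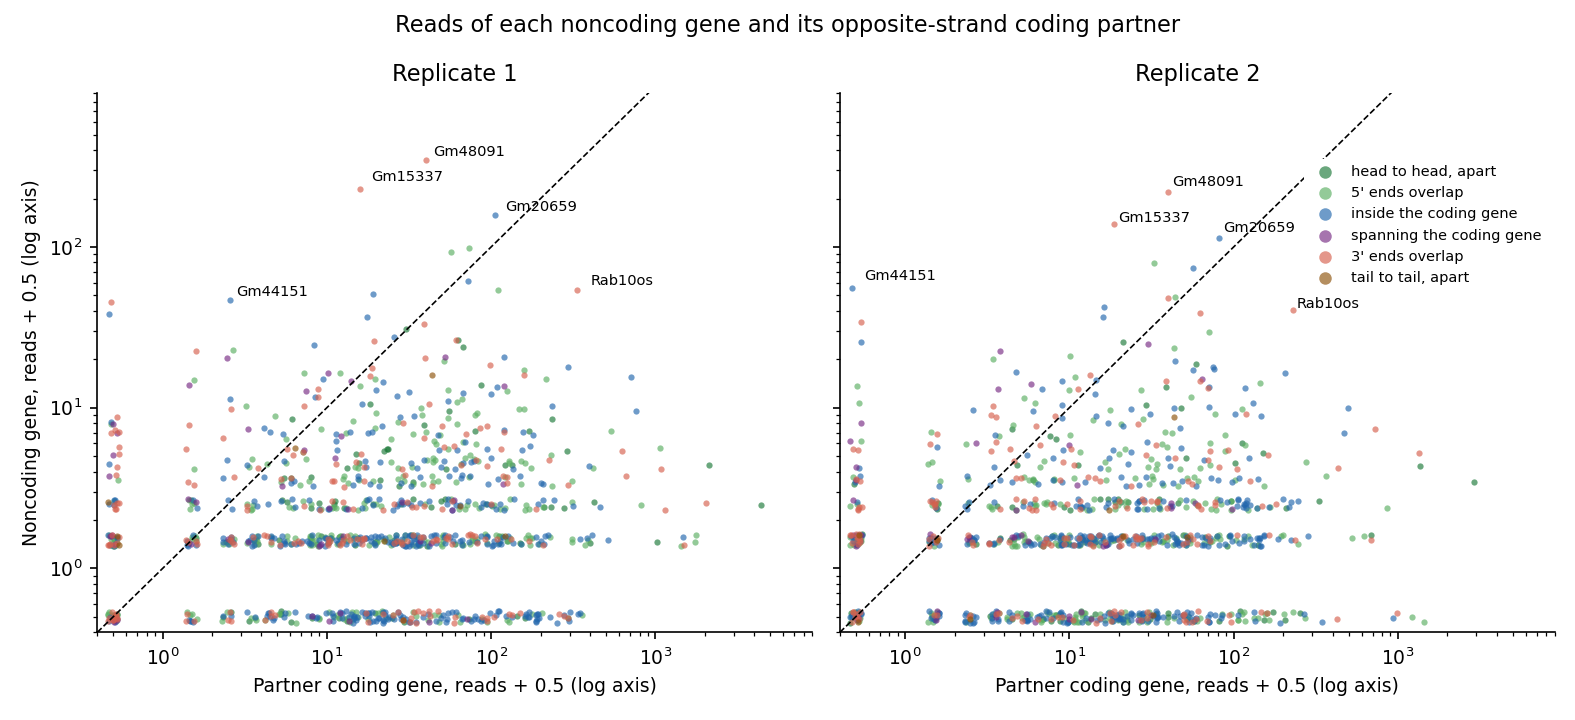
Each point is 1 of the 1045 pairs, with the reads of the coding partner on the horizontal axis and those of the noncoding gene on the vertical axis, both plus 0.5 on log axes, with a small random shift to part equal counts and colour for the arrangement. Points above the dashed line of equal reads include Gm48091 and Gm15337, and Rab10os lies below it. Of the 662 pairs with enough reads, 619 lay below the line in both libraries.

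The 24 pairs led by the noncoding gene were 8 overlapping at the 5′ ends, 8 inside the partner, 3 spanning it and 5 overlapping at the 3′ ends, with 0 lying apart. In 13 of them Genomic models held over 50% of the noncoding reads, in 4 annotated transcripts did, and in 8 models lying mainly in opposite-strand coding exons did. Without the noncoding models lying mainly in such exons, 15 of the 24 were left. Partner reads stayed as they were in this setting, so no other pair could join them. With annotated transcripts alone on both strands the noncoding gene led in 9 of 156 pairs, of which 4 were among the 24.

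Besides the genes above, the largest shares among genes with 20 or more reads and a partner with a read belonged to E130307A14Rik, Sp3os, Gm12709 and Dlx6os1. Sp3os had 23 and 19 reads, with 17 and 13 on annotated transcripts. Its partner by gene body, Gm11084, had 2 and 3 reads, but the nearest coding start is that of Sp3, a factor that binds GC boxes, with 34 and 24 reads. E130307A14Rik had 21 and 5 reads against 1 and 3 of Traf3ip2, and Gm12709 14 and 11 against 1 and 0 of Tctex1d1. All reads of Gm12709 were on single-exon Genomic models that touched none of its exons, and the main ones were 151 and 190 bases long. Gm13205, whose 3-exon model was among those with the most exons, had 23 and 17 reads, all spliced, inside Casz1, a zinc finger transcription factor gene with 8 and 4 reads. Its main model, with a splice site outside the annotation, held 19 and 14 of them and had 68.5% and 67.5% of its bases opposite Casz1 coding sequence.

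For 63 read noncoding genes the partner had no read in either library. After 4933431E20Rik, the most reads among them were on 9330151L19Rik (35 and 25, partner Gm49384), Fcnaos (7 and 6, Ccdc183), Gm40578 (8 and 5, Tnfaip2) and 4933412E12Rik (7 and 5, Gm10271). A partner chosen by the distance of starts was another gene for 322 of the 1045 (30.8%). By that rule Fcnaos faced Rabl6 with 116 and 87 reads, and Gm40578 faced Eif5, a translation factor gene, with 515 and 333.

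Named regulatory RNAs were at low levels. All 4 listed genes of imprinted regions or of X inactivation that belong to these types had a read. Airn, the noncoding RNA of the Igf2r imprinted cluster, had 6 and 12 reads (10.8 ± 7.30 RPM, SD, n = 2) against 5 and 5 of Igf2r, and 4 and 8 of them were on Genomic models. Kcnq1ot1 had 2 and 3 reads against 2 and 2 of Kcnq1, in which it lies, and Nespas, at the Gnas locus, 1 and 0 against 1665 and 1182 of Gnas. The counts of Kcnq1ot1 and Nespas were at or under the 3 counts that a count of 0 allows. Tsix had 16 and 8 reads, all on Genomic models. Xist, the noncoding gene it overlaps on the other strand, had 18 and 23 reads.

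Of the 18 listed RNAs beside developmental transcription factors, 7 had a read and 11 had none, among the latter Pax6os1, Nkx2-2os, Hotairm1, Hoxb3os and Evx1os. Dlx1as had 16 and 13 reads (16.1 ± 1.65 RPM, SD, n = 2), 10 and 7 of them on an annotated 2-exon transcript with 51.8% of its bases opposite the 3′ UTR of Dlx1. Dlx1, a homeobox factor of inhibitory interneurons, had 14 and 15 reads, although the partner by gene body was Metap1d with 19 and 11. Dlx6os1, also known as Evf2, had 14 and 8 reads against 1 and 0 of Dlx6. Zeb2os had 6 and 5, Zfhx2os 9 and 2 and Emx2os 3 and 3, against 19 and 9 of Zeb2, 2 and 3 of Zfhx2 and 7 and 8 of Emx2. Foxo6os and Tbx3os1 had 1 read each.

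Of the 8 listed RNAs beside neuronal or housekeeping genes, 6 had a read, and Uchl1os and Kcnmb4os1 had none. After Rab10os and Cep83os came Tug1, a widely expressed noncoding RNA, with 17 and 14 reads against 11 and 10 of Morc2a, with which its 5′ end overlaps. Without Genomic models its mean share of the pair was 44.4% in place of 59.5%. Kcnmb4os2 had 10 and 6 reads against 158 and 93 of Kcnmb4, a regulatory subunit of the BK potassium channel, and so took 5.95% and 6.06% of the pair. Tmem147os had 6 and 3 reads and Nrg3os 0 and 1.

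Grouped by the start of the partner's symbol, noncoding genes beside transcription factors had a read in 59 of 140 cases (42.1%), beside channels and receptors in 35 of 89 (39.3%), beside synaptic and cytoskeletal proteins in 18 of 37 (48.6%), beside RNA-binding and translation proteins in 10 of 37 (27.0%) and beside mitochondrial proteins in 6 of 17 (35.3%). The other partners gave 917 of 2829 (32.4%). Median partner reads ranged from 17 for transcription factors to 176.5 for RNA-binding and translation proteins, so the groups also differed in the level of the partner. The median noncoding share was 0.699% and 0.753% in the 14 compared pairs of synaptic and cytoskeletal partners and 2.61% and 6.67% in the 29 of transcription factors. These differences were not tested, and the start of a symbol may also take in genes of another kind than the group's name.

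Introns of the noncoding models were compared with annotated introns of the other strand. None of the 1364 and 961 spliced noncoding reads lay on a model with an intron at exactly the coordinates of an annotated intron on the opposite strand, which bounds the share at 0.281% and 0.398% (Wilson 95% upper limits). Allowing 10 bases at each end, 43 and 53 reads (3.15% and 5.52%) had such an intron, none of them on an annotated transcript. Gm44151 gave 37 and 48 of these: the intron of its spliced models, chr7:3391361-3394038 on the minus strand and not annotated for Gm44151, begins 5 bases before and ends 3 bases before the intron of Cacng8 at chr7:3391366-3394041. The other 11 reads came from 1700021J08Rik, 1700041B01Rik, 4930556I23Rik, Gm10658, Gm16141, Gm26512 and Gm26811, with 1 or 2 reads per model. The splice-site letters were not analysed here. Such letters belong to 1 strand, so an exact match was unlikely in advance, and the 0 says little on whether introns follow the other strand.

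The most exons among models with 5 or more reads in each library were the 5 of a Rab10os model with 10 and 8 reads, followed by 3 in Ndufb1-ps (75 and 57 reads) and 3 in Gm13205 (19 and 14). All bases of that Rab10os model lay outside opposite-strand coding genes and in exons of Rab10os.

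Between the libraries 1 of the 134 noncoding genes with 10 or more reads was called different (exact binomial test given the library totals, Benjamini-Hochberg over all genes tested), against 0.882% of the 11339 genes tested, 0.362% higher and 0.52% lower in replicate 2. At an unadjusted p under 0.05 there were 17 of 134 (12.7%), against 8.6% of all genes. The gene called was Gm4409 (chr6:79926414-80023156, minus strand), antisense to Lrrtm4, a postsynaptic adhesion protein, with 3 and 19 reads and a log2 ratio, replicate 2 over replicate 1, of 2.99 (adjusted p = 0.00539, exact binomial test). All its reads were on Genomic models. In replicate 1 a further 5 reads at this place were assigned to an unannotated gene, and with overlapping same-strand models counted together the reads were 8 and 19, the log2 ratio 1.71 and the adjusted p 0.153 by the same test. The median log2 ratio was 0.18 over the 134 noncoding genes and -0.0035 over all genes tested.

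The share of the noncoding gene within its pair was called different in 0 of 662 pairs (0%) after Benjamini-Hochberg adjustment of Fisher's exact test, with 15 (2.27%) at an unadjusted p under 0.05. The smallest adjusted p was 1. In the 108 pairs with 10 or more reads on each side, the log2 ratios of the 2 genes had the same sign in 55, with a Spearman's rho of 0.158.

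Part of the transcription on the noncoding strand was counted under other names. Models of other genes on the same strand that overlap exons of these noncoding genes held 456 reads in replicate 1 and 375 in replicate 2: 302 and 216 on coding genes, 109 and 135 on unannotated genes and 45 and 24 on other annotated genes. The deposited tables give each read to 1 gene, so counts of noncoding genes that overlap another gene on their own strand are uncertain.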

How the data were processed

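The authors deposited, per library, raw counts of reads per transcript model (models with 1 or more reads), with each model's class and gene, and an annotation of its exons. Per the notes deposited with the files, these derive from an alignment to mm10 with GENCODE M21. Per the file headers, TALON is the source of unannotated models. The aligner and tool versions were not given in the sources used here.

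Spike-in models were left out, and gene counts are sums over models. A partner is the opposite-strand coding gene with the nearest gene body. Log2 ratios use a pseudocount of 0.5 reads. With 1 group, edgeR's quasi-likelihood test could not be fitted, so the libraries were compared over genes of 10 or more summed reads by a two-sided exact binomial test, and pairs with 10 or more reads in each library by a two-sided Fisher's exact test, both adjusted by Benjamini-Hochberg and called under 0.05. The tests were tested on simulated data. Python 3.11.15, scipy 1.17.1, edgeR 4.0.16 (TMM factors) and DESeq2 1.42.0 (size factors) were used. Depth was 1072344 and 753520 mouse reads, intervals are Wilson 95% intervals, and alternatives changed the models counted, filters, scaling, pseudocount, partner rule and libraries.

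The members, lists and tests were chosen with earlier results of these data known. Named genes are the 12 with the most reads, the 8 with the largest share of a pair (20 or more reads), the 5 most read with a partner at 0, those called, all read members of 3 lists, up to 4 per arrangement by reads, those with introns shared with the other strand, and the 3 with the most exons. Gm16185, Snhg9, 4921516A02Rik, 2810029C07Rik and the genes other than Gm44151 with introns near those of the other strand were named after their values were seen. One pair is not reported here.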

Additional observations from a re-analysis of the deposited data

How the results depend on the processing

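No paired analysis was possible because the series has 1 group. The alternatives without the 3 most read genes, without models in opposite coding exons and with same-strand models counted together were chosen after seeing the data.

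The 1045 genes read became 134 with 10 or more reads, 498 read in both libraries, 345 on annotated transcripts and 564 without Genomic models, with 740 to 803 in a single library. Their share of mouse reads, 0.394 ± 0.0343% (SD, n = 2), became 0.100% on annotated transcripts, 0.160% without Genomic models, 0.148% without incomplete and Genomic models and 0.327% without the 3 most read genes, with 0.369 to 0.418% in a single library. The share on annotated transcripts, 25.6 ± 3.26% (SD, n = 2), became 30.9% without those 3 genes and was 23.3 to 27.9% in a single library.

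The 24 pairs led by the noncoding gene became 9 on annotated transcripts, 11 without Genomic models, 15 with 20 or more reads, 15 without models in opposite coding exons and 37 to 39 with a single library. The median share, 3.11 ± 0.357% (SD, n = 2), became 2.18% with 20 or more reads and 4.98% per kilobase, and 2.86 to 3.36% in a single library. The share of spliced reads with an intron of the other strand, 0%, became 4.33% with 10 bases of slack. The 1 gene called became 0 on annotated transcripts, 0 without Genomic models and 0 with overlapping same-strand models counted together. With genes of 50 or more reads alone, the 1 called was Gm26724 (adjusted p = 0.0447, exact binomial test) instead of Gm4409. The share test called 0 pairs under each alternative run. No called value changed direction. Among named genes that were not called, the log2 ratio between libraries changed sign in 6 cases, the farthest being Rab10os (0.04 to -0.90) and 4933431E20Rik (0.21 to -0.79) on annotated transcripts. The mean share of a pair crossed 50% in 7: with the partner by distance of starts for Sp3os (89.2 to 42.3%), 4933431E20Rik (100% to 31.4%), Gm15283 (37.2 to 93.9%) and 4930549G23Rik (14.2 to 90.2%), on annotated transcripts for 2810013P06Rik (24.7 to 94.2%) and Dlx1as (49.9 to 59.6%), and without Genomic models for Tug1 (59.5 to 44.4%). Fewer models or reads enter the settings on annotated transcripts and without Genomic models. The partner rule by distance of starts sets the same noncoding reads against another coding gene. TMM library sizes, with which the log2 ratio of 2610306M01Rik went from 0.0021 to -0.024, remove no read either. Other causes were not tested. Depth limits the 392 genes with a single read, whose absence from the other library was not detectable as a difference.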
